A study of Mus musculus with 4 samples.

Results

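The interleukin 1 (IL-1) receptor axis and the regulators of the transcription factor NF-kB were described in mouse liver through 10 genes, chosen by name out of 18193 genes with a probe set of a single gene symbol. They were the ligands Il1a and Il1b, the receptor chains Il1r1 and Il1rap, the secreted inhibitors Il1rn and Il18bp, the NF-kB feedback genes Nfkbiz, Nfkbia and Tnfaip3, and the adhesion molecule Icam1. All 10 were on the array, with 24 probe sets, and each gene was read by its brightest probe set, the other 14 serving as a check. The genes were chosen with earlier results of the same treated and control arrays in view, so that their levels and differences are given as a description without a test.

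IL-1 alpha and IL-1 beta bind the receptor IL1R1, which then recruits the accessory chain IL1RAP, and the pair signals through the adaptor MYD88 and the IRAK kinases to the IkB kinases. These kinases mark the inhibitor IkB alpha for destruction and free NF-kB to enter the nucleus. NF-kB then induces its own brakes, among them Nfkbia and Tnfaip3, and in the liver IL-1 is known, together with IL-6, as an inducer of the acute phase proteins that hepatocytes secrete.

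Liver RNA was measured on 4 Affymetrix arrays, 1 for each of 2 groups at day 7 and at day 10, each array from pooled liver samples. All mice carried the genotype Metff/ff:ERCre+/+, a Met gene flanked by recombination sites together with a Cre recombinase that tamoxifen switches on. Control littermates were injected with corn oil and had the same 4 days of rest, with neither tamoxifen nor canertinib. The treated group, labelled delta MET + EGFRi, received tamoxifen on 5 days to delete exon 16 of Met systemically and rested for 4 days. Canertinib, which blocks signalling by the EGF receptor, was then mixed into their food, aimed at 80 mg/kg/day. Day 7 and day 10 count from the start of that food in treated mice and from the end of the rest in controls, and the effects of deletion, tamoxifen, canertinib and feeding cannot be told apart in these groups. The number of animals in a pool, their age and their sex were not given in the labels. Each group has 1 array from either day, so that an SD below holds both the spread between pools and any change between the days.

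The arrays were alike in overall level, with median signals from 210.5 to 223.9. Most hepatocyte markers were bright on each of them, their summed signal lying between 348073 and 440988. Ass1 was an exception, at 312.1 and 435.2 units in control and 466.4 and 263.6 in treated livers. Met itself was not lower in treated livers, at a mean of 1123 ± 209 signal units on control and 2631 ± 280 on treated arrays (SD, n = 2). Whether its probes lie in the deleted exon was not examined, so that this does not check the deletion. Signals under a floor of 64.8 (the 25th percentile over the 4 arrays) were raised to it before taking log2. In liver tissue a lower or higher signal can come from more or fewer cells of a type or from a different RNA level per cell, which these data cannot tell apart.

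The start regions of the genes are shown because several of the members are known as NF-kB target genes and stood higher together in the treated livers. RefSeq windows from 250 bases before to 50 bases after an annotated start were at hand for 9 of the 10 members (13 windows, build GRCm38.p6). The NF-kB consensus motif of 10 letters, searched on both strands, was found in 3 of them, belonging to Il1r1, Nfkbia and Tnfaip3, and in 4.51% of 32851 windows of all genes. These windows are printed 5′ to 3′ along the gene's strand, with the motif in capitals. Icam1 follows, whose window had no exact match to this consensus but held the STAT motif TTCNNNGAA, in capitals there. Only exact matches were counted, so that the Icam1 window is not shown to lack an NF-kB site.
Nfkbia, chr12:55492598-55492897, minus strand: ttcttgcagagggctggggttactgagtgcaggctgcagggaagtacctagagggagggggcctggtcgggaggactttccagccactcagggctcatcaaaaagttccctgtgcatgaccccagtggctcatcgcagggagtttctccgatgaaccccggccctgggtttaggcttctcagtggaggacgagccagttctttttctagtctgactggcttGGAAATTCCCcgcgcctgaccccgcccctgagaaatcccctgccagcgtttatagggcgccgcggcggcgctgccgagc
Tnfaip3, chr10:19015361-19015660, minus strand: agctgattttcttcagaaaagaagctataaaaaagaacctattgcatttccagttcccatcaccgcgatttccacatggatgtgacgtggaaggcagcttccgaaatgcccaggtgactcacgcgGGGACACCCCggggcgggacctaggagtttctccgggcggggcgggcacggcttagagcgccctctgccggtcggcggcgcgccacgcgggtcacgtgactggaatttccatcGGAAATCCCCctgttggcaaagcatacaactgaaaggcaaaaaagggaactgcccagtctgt
Il1r1, chr1:40266336-40266635, plus strand: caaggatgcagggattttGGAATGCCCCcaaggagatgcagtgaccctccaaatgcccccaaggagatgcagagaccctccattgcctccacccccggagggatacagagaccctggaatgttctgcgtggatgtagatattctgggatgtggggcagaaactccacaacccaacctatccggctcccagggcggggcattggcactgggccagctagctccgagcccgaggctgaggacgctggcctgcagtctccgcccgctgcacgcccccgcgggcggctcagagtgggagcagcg
Icam1, chr9:21015690-21015989, plus strand: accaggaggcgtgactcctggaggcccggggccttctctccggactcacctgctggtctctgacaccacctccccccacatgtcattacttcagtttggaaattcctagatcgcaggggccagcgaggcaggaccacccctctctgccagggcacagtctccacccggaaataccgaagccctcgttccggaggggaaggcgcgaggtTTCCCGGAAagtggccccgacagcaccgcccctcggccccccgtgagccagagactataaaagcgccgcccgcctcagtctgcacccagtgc

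In Nfkbia the match began 29 bases before the start. In Tnfaip3 there were 2 matches, 125 and 12 bases before it. In Il1r1 the match lay 232 bases before the start of the downstream of 2 annotated starts and overlapped a match to the C/EBP motif TTNNGNAA. The STAT motif was found in 1 of the 13 windows, that of Icam1, 42 bases before its start, and in 8.3% of all windows. The AP-1 motif TGANTCA was found in windows of Il1rn, Il1a and Tnfaip3 and in 7.81% of all windows, and TTNNGNAA in 10 of the 13 windows and 40.7% of all. A match is a string of letters in a window and not a measured binding site. The members and motifs were chosen with earlier results of these data known, so that nothing is read from these shares.

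The receptor chain IL1R1 and the inhibitor IL18BP gave the largest differences over both days among the brightest probe sets of the 10 genes. Their order at day 10 rests on the floor, since Il18bp differed by 5.30 on the log2 scale with a floor at the 10th percentile and by 3.45 with one at the 40th, against 4.63 and 4.35 for Il1r1. Il1r1 read 133.8 and 117.8 signal units in the day 7 and day 10 control livers and 2330 and 2915 in the treated livers. Both treated arrays lay far above both control arrays, and the control arrays lay above the floor. Il1r1 exceeded control 17.4-fold at day 7 and 24.7-fold at day 10. The group means were 125.8 ± 11.3 on control and 2622 ± 413 on treated arrays (SD, n = 2). The control arrays lay under the filter on dim genes, a signal of 204, so that Il1r1 passed it through the treated arrays, as did Il18bp and Tnfaip3. A second, dim probe set of Il1r1 did not show this, at 65.4 and 10.8 units in control and 52.0 and 21.0 in treated livers, values that lay at or next to the floor.

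The accessory chain IL1RAP, without which IL1R1 does not signal, stood the other way. Il1rap read 6651 and 6748 units in control and 3864 and 2778 in treated livers at day 7 and day 10. The groups did not overlap, and the lowest value was that of the day 10 treated array. Il1rap was 1.72-fold lower at day 7 and 2.43-fold lower at day 10, from a mean of 6700 ± 68.2 to 3321 ± 768 units (SD, n = 2). Il1rap has 4 further, dimmer probe sets, and in each the groups overlapped. Their log2 differences over both days were -0.43, -0.37, -0.11 and 0.18, against -1.03 for the brightest. The gene is known to give membrane-bound and secreted forms of the protein, and which form each probe set reads was not examined.

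Of the ligands, Il1b differed little and Il1a gave no steady difference. Il1b, the main secreted form of IL-1 from macrophages and neutrophils, read 759.7 and 675.4 units in control and 1266 and 908.7 in treated livers. No treated value fell below a control value, but the highest control and the lowest treated value lay close, and Il1b exceeded control 1.67-fold at day 7 and 1.35-fold at day 10. Il1a, a form of IL-1 that dying cells can release, read 342.2 and 82.2 units in control and 225.7 and 202.7 in treated livers. The day 7 control array was the highest and the day 10 control array the lowest, giving a log2 difference of -0.60 at day 7 but 1.30 at day 10. With a floor at the 40th percentile the day 10 value was 0.51, and without the day 7 or the day 10 control array the difference over both days was 1.38 or -0.68. Il1a was the 1 member whose mean log2 signal was too low for the filter on dim genes.

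The secreted inhibitors of the IL-1 family were higher in treated livers. Il18bp, which encodes the protein that binds and neutralises IL-18, read 88.5 and 39.8 units in control and 892.5 and 1565 in treated livers. The day 10 control value lay under the floor, and both treated values lay well above both control values. Il18bp exceeded control 10.1-fold at day 7 and at least 24.2-fold at day 10. It has a single probe set here. Il1rn, the receptor antagonist that occupies IL1R1 without signalling, read 379.6 and 282.6 units in control and 998.5 and 1608 in treated livers. The groups did not overlap, and Il1rn exceeded control 2.63-fold at day 7 and 5.69-fold at day 10.

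The probe sets of Il1rn disagreed. Beside the brightest, with a log2 difference of 1.95 over both days, a second read 741.9 and 148.5 units in control and 751.4 and 389.6 in treated livers, a difference of 0.70. The remaining one read 672.9 and 481.3 units in control and 465.4 and 541.3 in treated livers, a difference of -0.18. In both of these the groups overlapped. The last was brighter than the reported probe set on both control arrays, so that the reported one is the brightest only through its treated arrays and its choice is not independent of the difference. Il1rn is known to give a secreted and intracellular forms, and which of them each probe set reads was not examined.

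**Figure D1:**
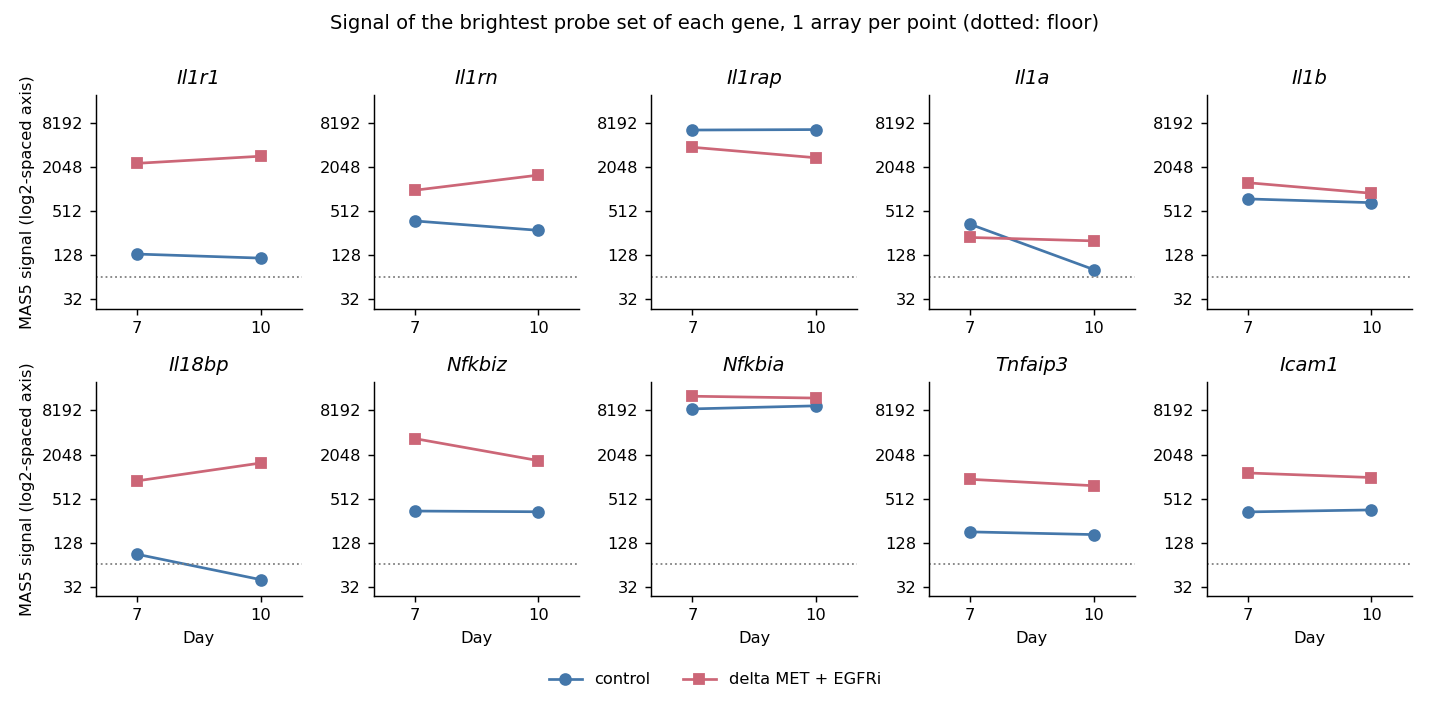
MAS5 signal of the brightest probe set of each of the 10 genes at day 7 and day 10 (log2-spaced vertical axis; circles control, squares delta MET + EGFRi; 1 array per point, the dotted line the floor of 64.8). The treated points lie far above the control points for Il1r1 and Il18bp, below them for Il1rap, and on both sides of them for Il1a.

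The NF-kB feedback genes differed in size. Nfkbiz encodes IkB zeta, a nuclear IkB protein that is induced by IL-1 and helps switch on a second set of NF-kB target genes. It read 345.2 and 337.5 units in control and 3381 and 1691 in treated livers. The control arrays nearly coincided, and the day 7 treated array was the highest. Nfkbiz exceeded control 9.79-fold at day 7 and 5.01-fold at day 10, so that its difference was smaller at day 10 by 0.97 on the log2 scale. A second probe set gave 5.37-fold and 2.08-fold at day 7 and day 10, with the same order of the days, and a dimmer probe set gave 1.14-fold and 1.81-fold. In all 3 probe sets the groups did not overlap.

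Tnfaip3 encodes A20, a ubiquitin-editing enzyme that shuts down signalling to NF-kB. It read 179.1 and 164.5 units in control and 937.9 and 766.4 in treated livers, or 5.24-fold higher at day 7 and, at day 10, 4.66-fold. Treated and control arrays were well apart, with means of 171.8 ± 10.3 and 852.2 ± 121 units (SD, n = 2). Its other probe set was dim and erratic, at 56.9 and 225.0 units in control and 258.6 and 58.7 in treated livers.

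Nfkbia, which encodes IkB alpha, was bright in every liver and only slightly higher after treatment. It read 8610 and 9486 units in control and 12835 and 12111 in treated livers. Treated and control values did not overlap, and Nfkbia exceeded control 1.49-fold at day 7 and 1.28-fold at day 10. Of its 4 other probe sets, 3 gave log2 differences over both days of 0.54, 0.66 and 0.40, near the 0.46 of the brightest, and their groups did not overlap. The remaining probe set gave -0.33, with overlapping groups.

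Icam1 encodes a ligand on endothelial cells and hepatocytes that leukocytes grip through the integrins LFA-1 and Mac-1. It read 335.7 and 357.6 units in control and 1145 and 992.2 in treated livers. Both treated arrays lay above both controls, and Icam1 exceeded control 3.41-fold at day 7 and 2.77-fold at day 10, from a mean of 346.7 ± 15.5 to 1069 ± 108 units (SD, n = 2).

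**Figure D2:**
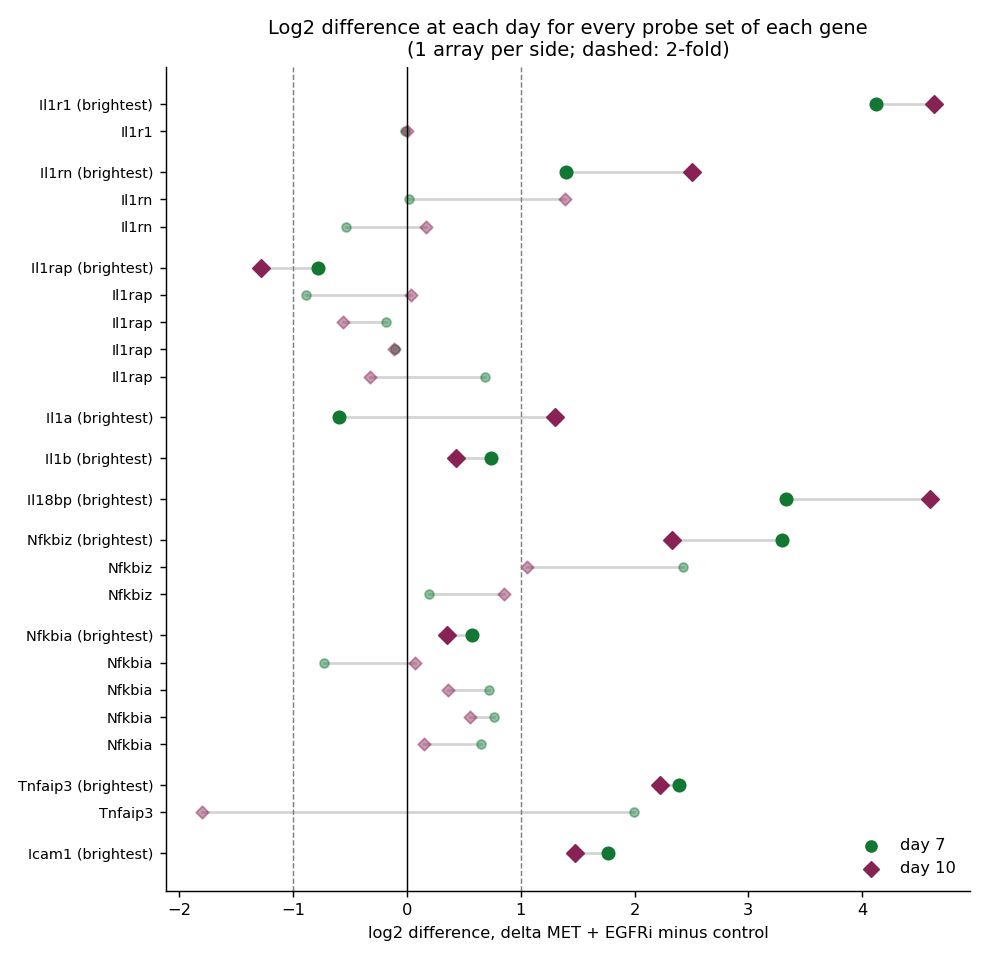
Log2 difference between the treated and the control array (horizontal axis) for each of the 24 probe sets, circles for day 7 and diamonds for day 10, with large symbols for the brightest probe set of a gene and dashed lines at 2-fold. The brightest probe sets of Il1r1, Il18bp, Nfkbiz and Tnfaip3 lie beyond 2 on the log2 scale at both days, while several other probe sets of Il1rn, Il1rap, Nfkbia and Tnfaip3 lie near or across 0.

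Over the 10 genes, 8 were higher and 1 lower at both days, against 22.9% and 26.4% of all 18193 genes, and Il1a differed in sign. At least 2-fold higher were 6 at day 7 and 7 at day 10, against 6.05% and 7.39% of all genes. Il1r1, Il18bp, Nfkbiz, Tnfaip3, Icam1 and Il1rn were so at both days, against 1.76% of all genes and 1.54% of those above the filter, and Il1a at day 10 alone. Il1rn is counted here by its reported probe set. At least 2-fold lower were 0 at day 7 and 1, Il1rap, at day 10, against 6.79% and 6.21% of all genes. None of the 10 was at least 2-fold lower at both days, against 1.4% of all genes and 1.14% of those above the filter. The groups did not overlap in 9 of the 10 genes, against 41.9% of all genes. Their median log2 difference, 1.58 at day 7 and 1.85 at day 10, stood beside a median of 0 over all genes at either day. Since the genes were chosen with this comparison in view, nothing is read from these counts.

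The 2 days did not rank the genes alike. From day 7 to day 10 the difference grew for Il1rn (by 1.11 on the log2 scale) and Il1r1 (0.51), and Il1rap moved further down. It was also larger at day 10 for Il18bp, by an amount that the floor sets. It shrank for Nfkbiz (by 0.97), Il1b (0.31), Icam1 (0.30), Nfkbia (0.22) and Tnfaip3 (0.17). Each of these is a difference between 4 single arrays and has no replicate check.

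**Figure D3:**
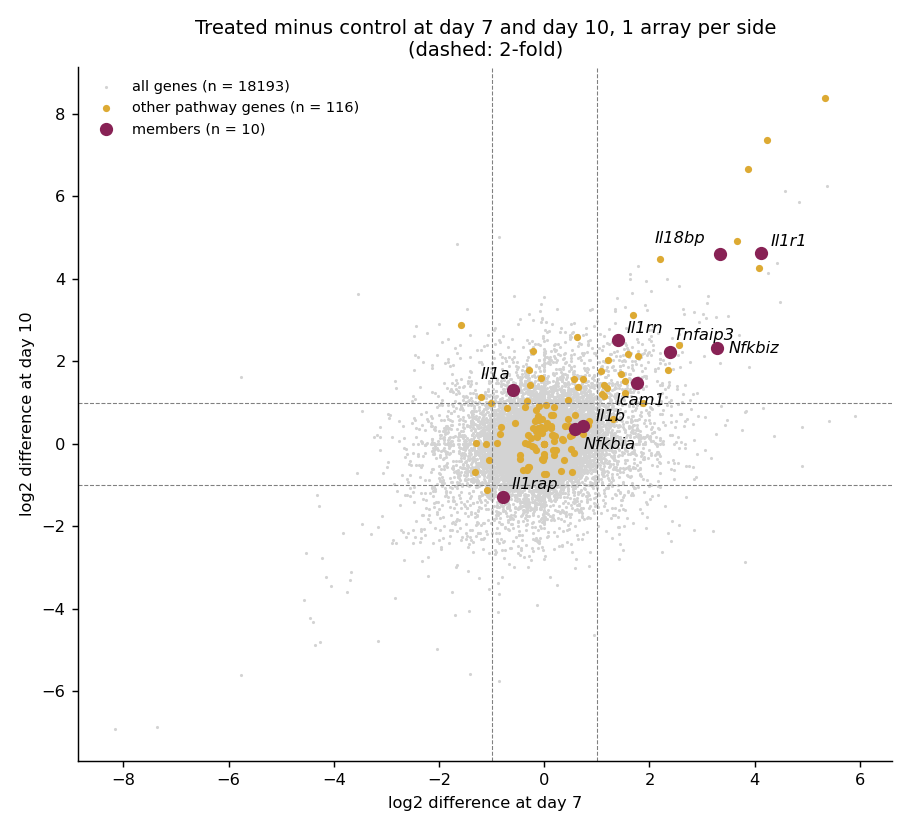
Log2 difference between treated and control livers at day 7 (horizontal) and at day 10 (vertical), 1 array per side, for all 18193 genes (grey), 116 other genes of the pathway (yellow) and the 10 members (purple, named), with dashed lines at 2-fold. Il1r1 and Il18bp lie in the upper right, above 3 on both axes, and Il1rap in the lower left.

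For a test across all genes, limma compared the 2 treated with the 2 control arrays over the 11993 genes above the filter on dim genes. It called 79 genes (0.659%) at a Benjamini-Hochberg adjusted p under 0.05, of which 45 (0.375%) were higher and 34 (0.283%) lower. Of the 9 members above the filter 5 were among the higher and 0 among the lower, namely Il1r1, Il18bp, Nfkbiz, Tnfaip3 and Icam1, which is no test of these genes, since this contrast entered their choice and Il1r1, Il18bp and Tnfaip3 passed the filter through the treated arrays. With day as a block 47 of all genes were called. Leaving out a control array gave 26 (day 7) and 24 (day 10) calls, and leaving out a treated array 466 (day 7) and 330 (day 10).

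The genes whose pair of daily differences lay nearest to that of Il1r1, by distance on the log2 scale over the 2 days, were Saa3, Acnat2, Igkv8-30, Orm3 and Il18bp. The distance was 0.37 for Saa3 and 0.55 for Orm3, which lay above the floor on all 4 arrays. Saa3 encodes a serum amyloid A protein of the acute phase and Orm3 an orosomucoid. Saa3 was 16.9-fold and 19.2-fold higher at day 7 and day 10, and Orm3 12.6-fold and 30.2-fold. Acnat2 and Igkv8-30 lay under the floor on both control arrays and Il18bp on 1, so that their distances depend on the floor and no order is read from them. All 5 were read against the same control arrays as Il1r1.

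Around the members, 10 lists of other genes of the pathway held 116 genes matched to a probe set, of which 90 lay above the filter. In limma's test over all 11993 genes, 8 of the 90 rose and 0 fell, 8.89% against 0.659% of all genes. All 8 were in the list of acute phase genes. Of the 78 genes in the other 9 lists 0 passed (9 at an unadjusted p under 0.05). Their median log2 difference over both days was 0.19, against -0.02 over all kept genes. The 10 lists were written with earlier results of these data known, so that nothing is read from these shares.

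The receptor family and its adaptors showed no call. Of 8 further IL-1 family ligands and receptors above the filter 0 passed by limma (1 had an unadjusted p under 0.05), and the median of the list was 0.17 on the log2 scale. Il1f5, the antagonist of the IL-36 receptor, was 2.14-fold lower by its brightest probe set without passing (412.0 and 466.5 units in control, 194.7 and 214.7 in treated livers; limma adjusted p = 0.247). With its probe sets averaged the log2 difference of Il1f5 was -0.097, against -1.10 (limma adjusted p = 0.959). Of 12 adaptors and kinases, among them Myd88, Irak1, Irak2 and Traf6, 0 passed (0 at an unadjusted p under 0.05). Their log2 differences ran from -0.44 to 0.52. Irak4 was not among the genes matched to a probe set. Irak3 lay under the filter, had no test and is described further below, where it was higher at both days. Of 7 genes of the inflammasome, which cuts the IL-1 beta and IL-18 precursors, 0 passed (0 at an unadjusted p under 0.05), from -0.14 to 0.52.

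Of 3 NF-kB subunits above the filter 0 passed by limma (0 at an unadjusted p under 0.05). Nfkb1 was not among the genes matched to a probe set, and Relb, under the filter, is described further below. Rela, the subunit of the canonical pathway, read 3379 and 4131 units in control and 4424 and 5559 in treated livers, a log2 difference of 0.41 ± 0.23 (SE, limma adjusted p = 0.539). Nfkb2, the p100 precursor, differed by 0.43 ± 0.23 (limma adjusted p = 0.529). Rel, found mainly in lymphoid and myeloid cells, read 430.5 and 164.3 units in control and 213.0 and 324.4 in treated livers, with a log2 difference of -0.02 ± 0.54 (limma adjusted p = 0.995). The groups of Rel overlapped.

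The other regulators of NF-kB gave 0 calls in 3 lists. For 7 further IkB proteins and IkB kinases the log2 differences ran from -0.21 to 0.75 (0 at an unadjusted p under 0.05). Chuk, of the same list, was not among the genes matched to a probe set. For 10 further negative regulators they ran from -0.52 in Rnf11 to 0.65 in Zc3h12a, which encodes the RNase regnase-1 (0 at an unadjusted p under 0.05). For 9 genes of the TNF receptor axis they ran from -0.17 to 0.75, with 2 at an unadjusted p under 0.05. Rnf11 and Zc3h12a are named here as the ends of a range, chosen after their values were seen.

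Among 8 adhesion genes above the filter 0 passed by limma, though 3 had an unadjusted p under 0.05. Both chains of LFA-1, the integrin that grips ICAM1, were higher at both days without passing. Itgal read 349.5 and 257.0 units in control and 796.7 and 659.5 in treated livers, 2.42-fold higher (limma adjusted p = 0.15). Itgb2 read 420.6 and 311.4 units in control and 919.6 and 834.5 in treated livers, also 2.42-fold higher (limma adjusted p = 0.122). In both genes the treated arrays lay above both control arrays. Other integrin chains of the list did not follow. Itgam, a chain of Mac-1, lay under the filter, with log2 differences of 0.52 at day 7 and -0.69 at day 10. Itgax was lower at both days, at -0.46 and -0.28. Itgam and Itgax are named after their values were seen.

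Of 14 other NF-kB target genes above the filter 0 passed by limma (3 at an unadjusted p under 0.05), and the list's median log2 difference was -0.02. Cxcl1, a neutrophil attractant, read 2057 and 1639 units in control and 6585 and 14289 in treated livers, 3.20-fold and 8.72-fold higher at day 7 and day 10 (limma adjusted p = 0.064). It passed with arrays scaled to equal medians (limma adjusted p = 0.038) and without either treated array, and its adjusted p ranged from 0.000208 to 0.368 over the settings tried. Ier3, an early response gene, read 105.9 and 109.3 units in control and 362.0 and 478.8 in treated livers, 3.87-fold higher (limma adjusted p = 0.146). Both control values lay under the filter signal of 204, so that Ier3 passed the filter on dim genes through its treated arrays.

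Of the 12 genes in the acute phase list, 8 rose and 0 fell in limma's test and 12 were higher at both days. The list's median was 2.27 on the log2 scale at day 7 and 3.22 at day 10. Whether IL-1 or another signal raised these genes was not tested. The 8 were the serum amyloids Saa2 and Saa3, the orosomucoids Orm1, Orm2 and Orm3, the iron scavenger Lcn2, and 2 transcription factors. These were Cebpb and Cebpd, which drive acute phase genes. Orm3 read 247.7 and 99.0 units in control and passed the filter on dim genes through its treated arrays, at 3130.7 and 2994.1. Control signals were lower at day 10 than at day 7 also in Lcn2 (755.1 and 199.0 units) and Orm2 (649.5 and 171.3). The same held for Saa2 (1355.5 and 478.7) and Saa1 (12788.5 and 3186). The larger day 10 differences of these genes thus came in part from the control arrays. In Cebpd the control signal was higher at day 10. Cebpd read 332.7 and 416.7 units in control and 1692 and 1431 in treated livers, 4.18-fold higher (limma adjusted p = 0.0226). Cebpb was 2.98-fold higher (limma adjusted p = 0.0307). With probe sets averaged Cebpd differed by 1.41 on the log2 scale (limma adjusted p = 0.2365), against 2.06 as reported. Averaged in the same way Cebpb differed by 1.28 (limma adjusted p = 0.0923), against 1.58, so that both no longer passed. Saa1 was 10.1-fold (limma adjusted p = 0.0913) and Cp, the copper carrier ceruloplasmin, 2.23-fold higher (limma adjusted p = 0.0904), and neither passed. Saa1 passed without the day 7 control array, where its log2 difference was 4.34, and without either treated array, but not without the day 10 control array, where it was 2.33. Cp passed with the filter at the 75th percentile (limma adjusted p = 0.0486) and without either treated array. With day as a block 3 of the 8 passed, Saa3, Orm3 and Lcn2, as they did without the day 10 control array and without limma's intensity trend. Without the day 7 treated array 13 genes of the 10 lists were called.

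**Figure D4:**
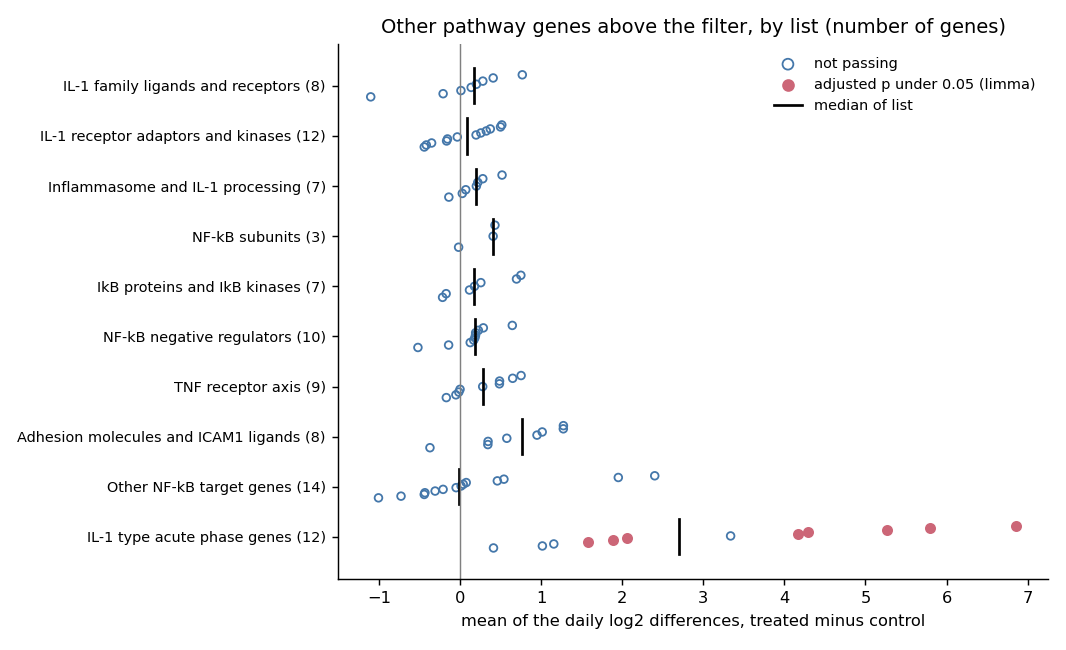
Mean of the 2 daily log2 differences, treated minus control (horizontal axis), for each pathway gene above the filter, by list with the number of genes (filled points: limma adjusted p under 0.05; black bars: list medians). The 8 filled points all lie in the acute phase list, whose median is 2.70, and the medians of the other 9 lists lie between -0.02 and 0.76.

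The 26 pathway genes under the filter had no test. Of these, 6 were at least 2-fold higher at both days and 0 at least 2-fold lower, against 2.19% of the 6200 genes under the filter that were at least 2-fold higher at both days. They were Irak3, Relb, Tnip2, Map3k8, Casp4 and Naip5, named after their values were seen. Irak3 encodes IRAK-M, which holds back signalling from the IL-1 receptor, and read 26.2 and 22.5 units in control, under the floor, and 384.3 and 341.2 in treated livers, at least 5.93-fold and 5.27-fold higher at day 7 and day 10. Relb, the NF-kB subunit of the noncanonical pathway, read 80.7 and 71.8 units in control and 233.5 and 205.7 in treated livers, 2.89-fold and 2.86-fold higher. In both genes each treated array lay well above each control array, at signals near the floor in control.

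Some markers of other cell types were also higher in treated livers. Over all 18193 genes 22.9% were higher and 26.4% lower at both days, and 0.375% of the 11993 above the filter rose in limma's test. The marker lists were chosen with earlier results of these data known, so that nothing is read from their counts. Of 13 macrophage and Kupffer cell markers 13 were higher at both days and 3 rose in limma's test (Vsig4, Cd163 and C1qc), and their summed signal was 14005 to 24826 units in control and 52952 to 52962 in treated livers. Of 9 neutrophil markers above the filter 7 were higher at both days and 3 rose (S100a8, S100a9 and Prtn3). Prtn3 read 44.2 and 49.2 units in control, under the floor, and passed the filter through its treated arrays, at 1540.9 and 4543.7. S100a9 read 119.6 and 274.7 units in control, and its treated arrays, at 1554.6 and 1701.5, carried it past the filter as well. The summed signal over the 11 neutrophil markers on the array was 4069 to 4136 units in control and 11573 to 14690 in treated livers. The rise came mostly through S100a8, S100a9 and Prtn3. S100a8 read 388.4 and 304.8 units in control and 3352.5 and 3656 in treated livers. Elane was lower at day 7 (log2 difference -0.72), Ltf differed little at day 10 (-0.009), and Cxcr2, under the filter, was lower at both days. Camp was under the floor on all arrays. Jchain, which joins antibody chains in plasma cells, rose among 7 B and plasma cell markers. It read 106.4 and 150.1 units in control, under the filter signal, and passed the filter through its treated arrays, at 1204.5 and 1282.1. The list's median log2 difference was -0.03, with 3 markers higher and 2 lower at both days. The sum of this list, 4149 to 6203 units in control and 13027 to 14054 in treated livers, was carried by Ighm, the heavy chain of IgM, at 2716 and 1017 units in control and 9578 and 7611 in treated livers. No marker of sinusoidal endothelial, stellate, T and NK cells or cholangiocytes passed. The endothelial sum was 11763 to 13271 units in control and 12077 to 17876 in treated livers, that of T and NK cells 3138 to 3169 and 2979 to 3722. That of cholangiocytes was 1053 on both control arrays and 583.5 and 1357 on the treated. The stellate cell sum was 14055 to 15853 units in control and 20155 to 20341 in treated livers, mostly through Dcn, the matrix protein decorin, at 5198 and 5879 against 11905 and 10839 units. Of 9 stellate markers above the filter 3 were higher and 4 lower at both days, with a median log2 difference of -0.19. Elane, Ltf, Cxcr2, Ighm and Dcn are named after their values were seen. The part of these cells in the values of Il1rn, Il18bp, Icam1 and the other members was not tested.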

How the data were processed

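Gene expression was measured in 4 pooled liver RNA samples on single-colour Affymetrix arrays. Per the submitters' processing notes the deposited values are MAS5 intensity (signal) values (version: not given in the sources used here). Trimmed by 2% at either end, the deposited intensity values averaged 500.0 on every array. Detection calls were not used. Every value column belonged to a sample.

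Of 45037 probe sets other than array controls, 34945 had a single gene symbol in the platform annotation, 932 several and 9160 none; the last 2 kinds were left out. Of the single symbols 99.4% matched the RefSeq table of GRCm38.p6 by Entrez ID. Signals under the 25th percentile were raised to it and put on the log2 scale, and genes whose mean log2 lay above the median of all probe sets (7.67) were kept. The 2 groups were tested by limma 3.58.1 under R 4.3.3 (lmFit and eBayes with an intensity trend, two-sided, 2 residual degrees of freedom per gene, Benjamini-Hochberg). P-values measure only the spread between these arrays. Single days were described by a 2-fold rule. The steps were tested on simulated arrays. Same-day arrays deviated from their group means with r = -0.07 across kept genes; day as a block was an alternative.

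The members, the 10 pathway and 8 cell type lists, the motifs and the tests were chosen with earlier results of these data known. Named were all members, pathway genes that pass, up to 3 more per list at least 2-fold apart in the same direction at both days, all genes of pathway lists with 5 or fewer kept genes, marker genes that pass or lie at the floor, and the 5 genes nearest to Il1r1. Alternatives were quantile or median scaling, floors at the 10th and 40th percentile, no filter or one at the 75th percentile, the mean of probe sets, no trend, the block, leaving out each array, an adjusted p under 0.1, and 1.5-fold and 3-fold rules. Figures used Python 3.11.15 and matplotlib 3.10.9.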

Additional observations from a re-analysis of the deposited data

Results flagged for a closer look

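Among the 24 probe sets of the members and the 18 named pathway genes, the difference had opposite signs at day 7 and day 10 in 7, each from 1 array per group and day, and none of these differences between days was tested. Il1a moved from lower at day 7 to higher at day 10, a change of 1.90 on the log2 scale, with the day 7 and day 10 control arrays the highest and lowest of the 4. The dim second probe set of Tnfaip3 moved from higher to lower, by -3.79, while its brightest probe set was higher at both days. Another probe set of Il1rn changed by 0.70 and another of Nfkbia by 0.80, both with signals above the filter on dim genes on every array. Of the probe sets of Il1rap, 1 changed by 0.92 and another by -1.01. Rel, an NF-kB subunit, changed by 1.997, from lower at day 7 to higher at day 10. Such opposite signs were common, in 34 of the 90 pathway genes above the filter (37.8%) and in 42.1% of all 11993 genes above it.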

How the results depend on the processing

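The number of genes called over both days was 79, and it was 93 with quantile normalization, 112 with arrays scaled to equal medians and 78 and 102 with floors at the 10th and 40th percentile. It was 42 when probe sets of a gene were averaged, 42 without the trend, 47 with day as a block, 162 at an adjusted p under 0.1, and from 24 to 466 when an array was left out. With 1 array left in a group, its spread is assumed to be that of the other group. Without a filter on dim genes limma called 0 of 18193 genes (1918 at an unadjusted p under 0.05), 0 members and 0 pathway genes. Members called were 5, and 3 with a filter at the 75th percentile, 1 with the mean of probe sets, 3 without the trend, 3 with the block and 1 to 7 without an array. Pathway genes called were 8, and 3 with the mean of probe sets, without the trend and with the block, and 3 to 13 without an array. Genes at least 2-fold apart were 2337 at day 7 and 2475 at day 10. They were 1409 and 1545 with a floor at the 40th percentile, 5463 and 5534 at 1.5-fold, and 867 and 883 at 3-fold.

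Members past the fold rule in the higher direction numbered 5 to 7 at either day under the scalings, floors, averaged probe sets and fold rules run. Signs turned in other probe sets: for Il1r1 (-0.013 at day 7, -0.0066 over both days), Il1rn (-0.53 at day 7, -0.18 over both days), Il1rap (0.036 at day 10 in 1 probe set, 0.68 at day 7 and 0.18 over both days in another), Nfkbia (-0.73 at day 7, -0.33 over both days) and Tnfaip3 (-1.80 at day 10). Rel turned to 0.0066 with quantile normalization, 5.75e-05 with equal medians, and ranged from -0.71 to 0.68 when an array was left out. Il1a, 0.35 over both days, turned to -0.048 with a floor at the 40th percentile and ranged from -0.68 to 1.38 when an array was left out. Of the 8 called pathway genes, Saa3, Orm3 and Lcn2 were called in every setting run except without a filter. The cause of these changes was not tested, and Orm3 was kept by the filter through its treated arrays. Signal near the floor limits Il1a, Il18bp, Irak3 and the dim probe sets, and 2 arrays per group limit every p-value.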
